A study of Homo sapiens with 24 samples.

Results

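A set of 10 regulators of the integrated stress response was followed across all 24 libraries of a knockdown study in K562 cells. The genes are ATF4, ATF5, ATF3, DDIT3, CEBPB, CEBPG, TRIB3, CHAC1, SESN2 and PPP1R15A. They were chosen by name, as regulators of this response, with earlier results of these data known, and all 10 were found among the 57992 genes of the count tables. K562 is an established human line of chronic myelogenous leukaemia. Every group carried an inducible CRISPR interference system, with doxycycline (50 ng/ml in the labels) as the inducer. The sgDDX3 arm targets DDX3X, which encodes an RNA helicase of translation initiation, and the sgGal4 arm serves as its control. Both arms were sampled at day 0, day 3 and day 14, and 2 libraries of ribosome footprints and 2 of cytosolic RNA were made for each guide and day. Doxycycline stands in the labels of day 0 samples too, without a statement that those cells had received it. Nor are the 2 libraries of a group described as separate cultures, so the p-values reflect the spread between libraries and this spread may be technical. The question was how these regulators differed between the guides, set against how they moved over the same days in the control cells.

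The integrated stress response begins when a kinase phosphorylates the initiation factor eIF2. Most translation then falls, while a few mRNAs with short upstream reading frames, ATF4 foremost, are translated more. ATF4 is a basic leucine zipper (bZIP) transcription factor that drives genes for amino acid supply, tRNA charging and redox balance. It also drives further bZIP factors, and the response is closed by a phosphatase subunit that removes the phosphate from eIF2. ATF4 dimerizes with C/EBP family members and binds a composite element, the C/EBP-ATF response element.

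Short promoter stretches are shown because 4 of the 10 genes carry a binding motif of this factor family close to a start site. Promoter windows of RefSeq (GRCh38.p14), from 250 bases before to 50 bases after each annotated start, were searched on both strands. The core of the C/EBP-ATF response element was taken as TGATGNAA and the cyclic AMP response element as TGACGTCA, and no 2 matches overlapped. All 10 genes matched, with 19 windows between them. The capitals mark the motif, and each stretch is read 5′ to 3′ on the gene's strand, which is the plus strand in all 4.
ATF3, chr1:212565205-212565234: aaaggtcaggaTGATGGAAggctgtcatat
CHAC1, chr15:40953251-40953280: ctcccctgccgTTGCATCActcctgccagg
CEBPG, chr19:33374060-33374089: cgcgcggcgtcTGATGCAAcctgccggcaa
PPP1R15A, chr19:48872352-48872381: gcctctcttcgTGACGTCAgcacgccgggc
Counted from the annotated start of its window, the motif lies at -191 to -184 in ATF3, -209 to -202 in CHAC1, -42 to -35 in CEBPG and -58 to -51 in PPP1R15A. In CHAC1 it is on the strand opposite to the gene. The core element was present in the windows of 3 of the 10 genes and in those of 4.46% of the 27305 genes of the table. The cyclic AMP element was present in 1 of the 10 and in 2.25% of all genes. In single windows the shares were 3.62% and 1.85% of 35116. A match describes letters and not a bound site. The other 6 genes have no match in these windows.

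The knockdown was seen in every library labelled for it after day 0. DDX3X RNA, in CPM (a gene's counts normalised to the total of its library) scaled by the factors of the trimmed mean of M values (TMM), was 38.9 and 33.7 with sgDDX3 at day 3 against 185 and 174 with sgGal4. At day 14 it was 134 and 101 against 201 and 187, so the day 14 difference was smaller. Depth was 1.03e+07 to 4.33e+07 counts per RNA library and 6.22e+06 to 1.52e+07 per footprint library. The 10 genes had 172 to 33313 RNA counts and 116 to 6060 footprint counts per library, and all 10 passed the filter on low counts in both assays. Of 12 markers of K562 and erythroid cells, summed RNA levels ranged from 1606 to 2156 CPM, and HBG1 alone had a mean under 1 CPM. Lymphoid markers summed to 6.59 to 9.48 CPM, with MS4A1 at 0, and epithelial and stromal markers to 24.9 to 33.6 CPM, with KRT5 at 0. In bulk samples, fewer cells with a transcript and less of it per cell cannot be told apart.

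Replicates of some groups differed in these genes, most in sgDDX3 at day 14. With sgDDX3 at day 14, replicate 1 was below replicate 2 in RNA for 9 of the 10, all but PPP1R15A, with a median log2 difference of -0.37 against -0.01 over all genes. In footprints it was below replicate 2 for 10 of 10, with a median of -0.43. The ATF4 target genes listed further on moved the same way, 36 of 42 being lower in replicate 1 in RNA. In RNA the medians of the other 5 groups lay between -0.04 and 0.17. In footprints the day 3 pairs differed the other way, replicate 1 being higher for 10 of 10 with sgGal4 (median 0.26) and for 7 of 10 with sgDDX3 (median 0.32), and the other 3 medians lay between 0.04 and 0.19. At day 3, ATF5 RNA was higher in replicate 1 than in replicate 2 with both guides, by 0.63 with sgGal4 and 0.58 with sgDDX3. Whether these gaps come from the cells or from the libraries was not tested, and results at day 14 are therefore also given without sgDDX3 replicate 1.

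**Figure D1:**
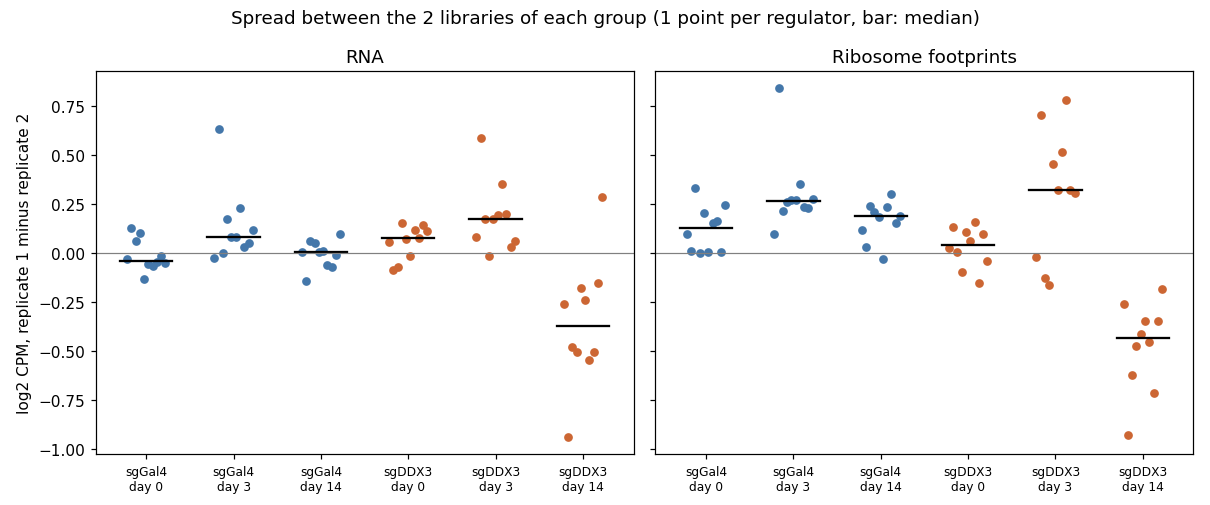
Log2 difference in CPM between replicate 1 and replicate 2 of each group, 1 point per gene and a bar at the median of the 10 genes, for RNA (left) and footprints (right). The sgDDX3 day 14 pair lies lowest in both assays, with medians of -0.37 and -0.43.

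At day 14 both sgDDX3 libraries lay under both sgGal4 libraries in RNA for all 10 genes, as they did for 25.6% of all genes. Of the 10, 6 passed the test as lower, against 6.18% of all genes. These were TRIB3, DDIT3, ATF3, CHAC1, ATF4 and SESN2. In the control cells, 6 genes rose from day 0 to day 14 (ATF5, TRIB3, DDIT3, CEBPB, SESN2 and PPP1R15A), against 7.7% of all genes. In sgDDX3 cells 3 fell over the same days (ATF3, CHAC1 and ATF4) and none rose, against 12.8% of all genes lower and 13.4% higher. These sgDDX3 calls turned on single libraries. Without day 14 replicate 1 none of the 3 falls passed and ATF5 rose (0.63, adjusted p = 0.0101, edgeR). Without day 14 replicate 2 the 3 falls held, TRIB3, DDIT3 and SESN2 fell as well, and PPP1R15A rose (0.28). At day 0 none of the 10 passed between the guides. Differences are log2 values from the quasi-likelihood test of edgeR with their standard error (SE), a gene passed at an adjusted p under 0.05, and p-values were adjusted over all genes of an assay.

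**Figure D2:**
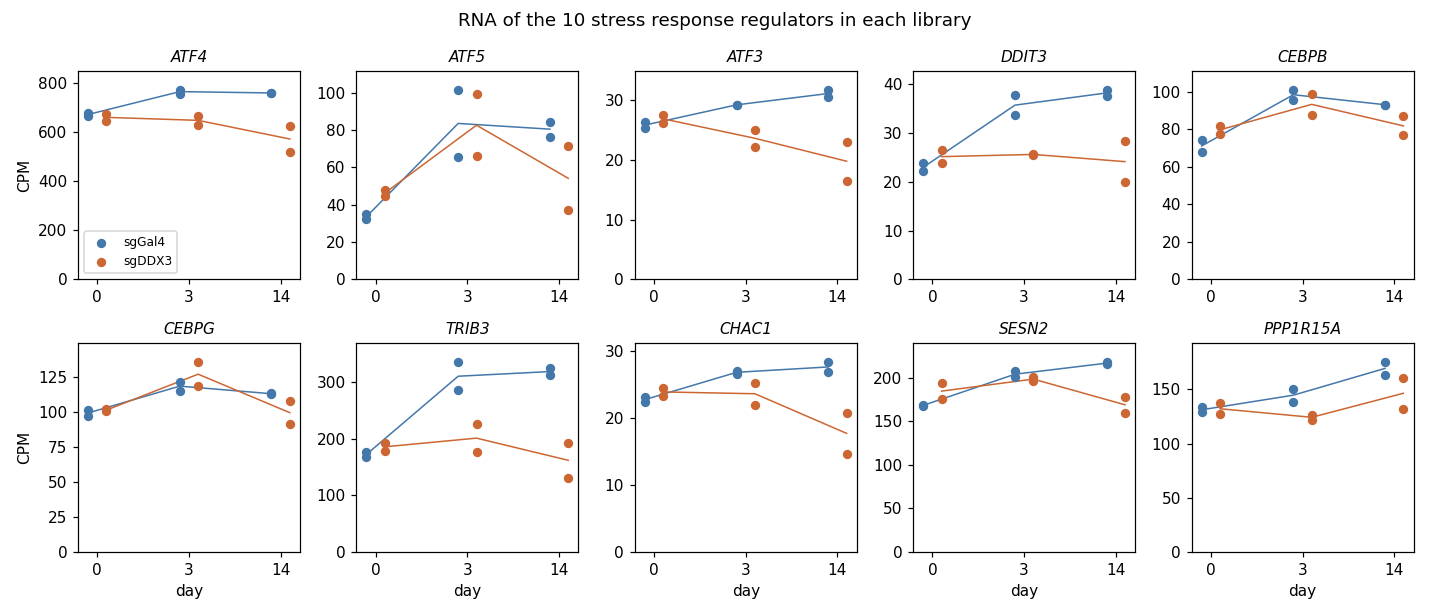
RNA level in CPM (vertical axis, from 0, its own scale for each gene) of the 10 genes by day, 1 point per library, lines through the means of 2 libraries. At day 14 both sgDDX3 points lie under both sgGal4 points in all 10 panels.

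ATF4, on chromosome 22 at 39520559 to 39522686 (RefSeq, GRCh38.p14), is the central transcription factor of the response and is itself controlled mainly at translation. Its RNA was 664 and 680.2 CPM with sgGal4 at day 0, 758 and 773 at day 3, and 760.5 and 759.8 at day 14. The sgDDX3 levels were 673 and 648 CPM, then 667 and 630.1, then 520.4 and 624. The groups overlapped at day 0 and not later, when both sgDDX3 libraries were the lower ones. The difference was -0.24 ± 0.07 (SE; adjusted p = 0.0305, edgeR) at day 3, and by day 14 it had reached -0.41 ± 0.07 (adjusted p = 0.000559). The rise with time in sgGal4 was 0.18 ± 0.07 at day 14 and did not pass (adjusted p = 0.102), while sgDDX3 cells fell by 0.21 (adjusted p = 0.0399). That fall rested on replicate 1: without it the value was -0.08. It was also lost by DESeq2 (adjusted p = 0.0506) and without either day 0 library of sgDDX3 (-0.18 and -0.24). At day 3 the value no longer passed once sgDDX3 replicate 2 (-0.20), sgGal4 replicate 1 (-0.25) or sgGal4 replicate 2 (-0.22) was left out.

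ATF5, on chromosome 19 at 49928906 to 49933935, is a bZIP factor whose mRNA, like that of ATF4, has upstream reading frames. It had the steepest rise of the 10 in control RNA and, at days 3 and 14, the widest gap between replicates. With sgGal4 it was 35.1 and 32.1 CPM at day 0, 101 and 65.4 at day 3, and 76.3 and 84.5 at day 14. Under sgDDX3 it measured 44.8 and 47.6 CPM, then 98.99 and 66.03, then 37.1 and 71.1. At day 3 the guides were interleaved, and at day 14 the lower sgDDX3 library had fallen under its own day 0 level while the other had not. The rise in sgGal4 was 1.34 ± 0.21 at day 3 (adjusted p = 0.000811, edgeR) and 1.26 ± 0.22 at day 14 (adjusted p = 0.000493). In sgDDX3 it was 0.86 ± 0.21 at day 3 (adjusted p = 0.00451) and 0.23 ± 0.22 at day 14 (adjusted p = 0.491). The day 14 value was 0.63 and passed without replicate 1 (adjusted p = 0.0101), and was -0.32 without replicate 2. The guide difference at day 14, -0.58 ± 0.21, did not pass (adjusted p = 0.0694). Without the filter on low counts it passed (-0.62). ATF5 itself passed that filter, with 437 to 4461 RNA counts per library. The setting therefore added other genes to the fit and left the counts of ATF5 unchanged. The sgGal4 rise at day 3 was lost without replicate 1 of day 3 (0.95). The sgDDX3 rise at day 3 was lost without day 3 replicate 1 (0.52), without day 0 replicate 1 (0.82) and by DESeq2 (adjusted p = 0.0801).

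ATF3, on chromosome 1 at 212565407 to 212620777, is a bZIP factor induced by ATF4 and by many other stresses. Its RNA was 26.3 and 25.2 CPM with sgGal4 at day 0, 29.1 and 29.2 at day 3, and 31.7 and 30.4 at day 14. The sgDDX3 libraries had 26.1 and 27.5 CPM, then 24.98 and 22.1, then 16.4 and 23.02. Both sgDDX3 libraries lay under both sgGal4 libraries at days 3 and 14. The difference at day 3, -0.29 ± 0.11, did not pass (adjusted p = 0.0867, edgeR), and neither did the change in sgGal4 at day 3 (0.18) or day 14 (0.26). At day 14 the difference was -0.65 ± 0.12 (SE; adjusted p = 0.00076, edgeR). In sgDDX3 the fall from day 0 was -0.44 ± 0.12 (adjusted p = 0.00939). It was -0.22 and did not pass without day 14 replicate 1, and it was also lost without day 0 replicate 2 (-0.41).

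DDIT3, on chromosome 12 at 57516588 to 57520517, encodes CHOP, a C/EBP family factor linked to cell death under lasting stress. With sgGal4 its RNA went from 23.8 and 22.2 CPM at day 0 to 37.8 and 33.6 at day 3 and 38.9 and 37.6 at day 14. With sgDDX3 it was 26.5 and 23.8 CPM, 25.4 and 25.8, and 19.9 and 28.3 at the 3 days. At day 14 the control libraries were above their day 0 levels, and the sgDDX3 libraries lay on either side of theirs. The rise in sgGal4 at day 14 was 0.73 ± 0.12 (adjusted p = 0.000315, edgeR), and the same change in sgDDX3 was -0.07 ± 0.12 (adjusted p = 0.729). Without sgDDX3 replicate 2 of day 14 the latter was -0.35 and passed (adjusted p = 0.0459), and without replicate 1 it was 0.16. The guide difference was -0.50 ± 0.11 at day 3 (adjusted p = 0.00518) and -0.66 ± 0.12 at day 14 (adjusted p = 0.000721). The day 3 call was lost without sgGal4 replicate 1 (-0.39).

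The C/EBP factors CEBPB and CEBPG, partners of ATF4 in DNA binding, showed small guide differences in RNA. CEBPB (chromosome 20, 50190583 to 50192690) was at 67.8 and 74.6 CPM with sgGal4 at day 0, 101 and 95.9 at day 3, and 93.3 and 93.1 at day 14. In sgDDX3 cells it was at 81.8 and 77.8, then 99.03 and 87.8, then 76.8 and 87.01 CPM. It rose in sgGal4 by 0.39 ± 0.08 at day 14 (adjusted p = 0.00339, edgeR), a call lost without day 0 replicate 1 (0.31). CEBPB started higher in both sgDDX3 libraries and ended lower in both, and neither guide difference passed (-0.19 ± 0.08, adjusted p = 0.153 at day 14).

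CEBPG (chromosome 19, 33373709 to 33382686) was at 97.6 and 101 CPM with sgGal4 at day 0, 122 and 115 at day 3, and 114 and 113 at day 14. The sgDDX3 values were 101 and 102, 136 and 119, and 91.4 and 108 CPM. CEBPG was the 1 of the 10 with a positive guide difference at day 3, and it passed at neither day (0.10 ± 0.08 at day 3 and -0.18 ± 0.09 at day 14). Its rise to day 3 in sgDDX3, 0.33 ± 0.08, passed (adjusted p = 0.0064, edgeR). That call was lost without day 3 replicate 1 (0.22), day 0 replicate 1 (0.32) or day 0 replicate 2 (0.34).

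TRIB3, on chromosome 20 at 380760 to 397559, is a pseudokinase induced by ATF4 and CHOP that feeds back on them, and it had the largest guide difference of the 10. With sgGal4 its RNA was 169 and 177 CPM at day 0, 336 and 286 at day 3, and 312 and 326 at day 14. With sgDDX3 it was 193 and 178, then 226 and 177, then 132 and 193 CPM. Control levels rose by day 3 and held, while at day 14 one sgDDX3 library was at its day 0 level and the other was under it. The rise in sgGal4 was 0.85 ± 0.12 at day 3 (adjusted p = 0.000457, edgeR) and 0.89 ± 0.13 at day 14 (adjusted p = 9.16e-05). In sgDDX3 the change was 0.12 ± 0.12 at day 3 and -0.20 ± 0.13 at day 14, and neither passed. The day 14 change passed without replicate 2 (-0.51, adjusted p = 0.000451) and without the filter on low counts (-0.22, adjusted p = 0.0381), and was 0.05 without replicate 1. The guide difference was -0.62 ± 0.12 at day 3 (adjusted p = 0.00158) and -0.98 ± 0.13 at day 14 (adjusted p = 2.2e-05).

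CHAC1, on chromosome 15 at 40953471 to 40956512, is an ATF4 target that breaks down glutathione. Its RNA was 22.3 and 23.1 CPM with sgGal4 at day 0, 27.03 and 26.5 at day 3, and 26.9 and 28.3 at day 14. The sgDDX3 libraries gave 24.5 and 23.2, then 25.2 and 21.9, then 14.6 and 20.8 CPM. The change in sgGal4 at day 14, 0.29 ± 0.12, did not pass (adjusted p = 0.0986, edgeR). The guide difference was -0.65 ± 0.13 (adjusted p = 0.00112) and the fall from day 0 in sgDDX3 was -0.44 ± 0.13 (adjusted p = 0.0131). The fall did not pass without day 14 replicate 1 (-0.20) or day 0 replicate 1 (-0.40).

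SESN2, on chromosome 1 at 28259518 to 28282491, encodes a sestrin that restrains mTORC1 when leucine is short. With sgGal4 its RNA was 168 and 169 CPM at day 0, 208 and 201 at day 3, and 216 and 218 at day 14. In the sgDDX3 arm it was 194 and 176, then 200.5 and 197, then 160.0 and 178 CPM. The sgDDX3 levels started above the control and ended below it. The guide difference at day 14 was -0.36 ± 0.07 (adjusted p = 0.00173, edgeR) and the rise in sgGal4 0.37 ± 0.07 (adjusted p = 0.00179).

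PPP1R15A, on chromosome 19 at 48872421 to 48876058, encodes GADD34, the inducible phosphatase subunit that ends the response. Its RNA was 129 and 134 CPM with sgGal4 at day 0, 151 and 139 at day 3, and 175 and 164 at day 14. The sgDDX3 arm had 137 and 127, then 127 and 122, then 161 and 132 CPM. Here replicate 1 of sgDDX3 at day 14 was the higher library, unlike in the other 9 genes. The rise in sgGal4 at day 14 was 0.37 ± 0.08 (adjusted p = 0.00541, edgeR), lost without day 0 replicate 1 (0.33) or day 14 replicate 1 (0.31). The guide difference at day 14 was -0.21 ± 0.09 and did not pass (adjusted p = 0.112).

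Counted together, none of the 10 passed in RNA at day 0, where 0.00547% of all genes did (edgeR), and 0 by DESeq2. An unadjusted p under 0.05 was reached by 0 of the 10 and by 4.55% of all genes. At day 3 there were 3 lower genes (ATF4, DDIT3 and TRIB3), against 6.39% of all genes called lower, and the median over the 10 was -0.19. At day 14 there were 6 lower genes against 6.18% of all genes, with a median of -0.50 against -0.01 over all genes. Both sgDDX3 libraries lay under both sgGal4 libraries for 7 of the 10 at day 3, where 27.4% of all genes did so. At day 14 this held for 10 of 10, against 25.6%. Without replicate 1 of sgDDX3 the calls of the 6 lower genes held and PPP1R15A passed as well (-0.35). The values were then -0.73 for TRIB3, -0.42 for DDIT3, ATF3 and CHAC1, and -0.28 for ATF4 and SESN2. Without replicate 2 they were larger, at -1.29 for TRIB3, -0.94 for DDIT3 and CHAC1, -0.92 for ATF3, -0.56 for ATF4 and -0.45 for SESN2. ATF5 depended most on the library, with -0.18 without replicate 1 and -1.14 without replicate 2. CEBPB had -0.10 without replicate 1 and -0.29 without replicate 2, and CEBPG had -0.07 and -0.32. Without replicate 2, ATF5, CEBPB and CEBPG passed as well. The calls over all genes also moved with a library left out, so 6.18% does not serve as the background of these settings.

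Over time in sgGal4, 5 of the 10 rose by day 3 (ATF5, TRIB3, DDIT3, CEBPB and SESN2), where 3.41% of all genes were called higher, and the count was between 1 and 4 with 1 library left out. By day 14, 6 of the 10 rose against 7.7% of all genes. Both later sgGal4 libraries lay above both day 0 libraries for all 10 genes, at day 3 (27% of all genes) and at day 14 (30.4%). In sgDDX3, 2 of the 10 were higher at day 3 (ATF5 and CEBPG), against 11.1% of all genes, a share not far from the background. At day 14, 3 were lower and 0 higher, with 12.8% of all genes lower and 13.4% higher. Only those same 3 genes had an unadjusted p under 0.05 there, against 36.6% of all genes. DESeq2 called 2, and the shares given here are those of edgeR.

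**Figure D3:**
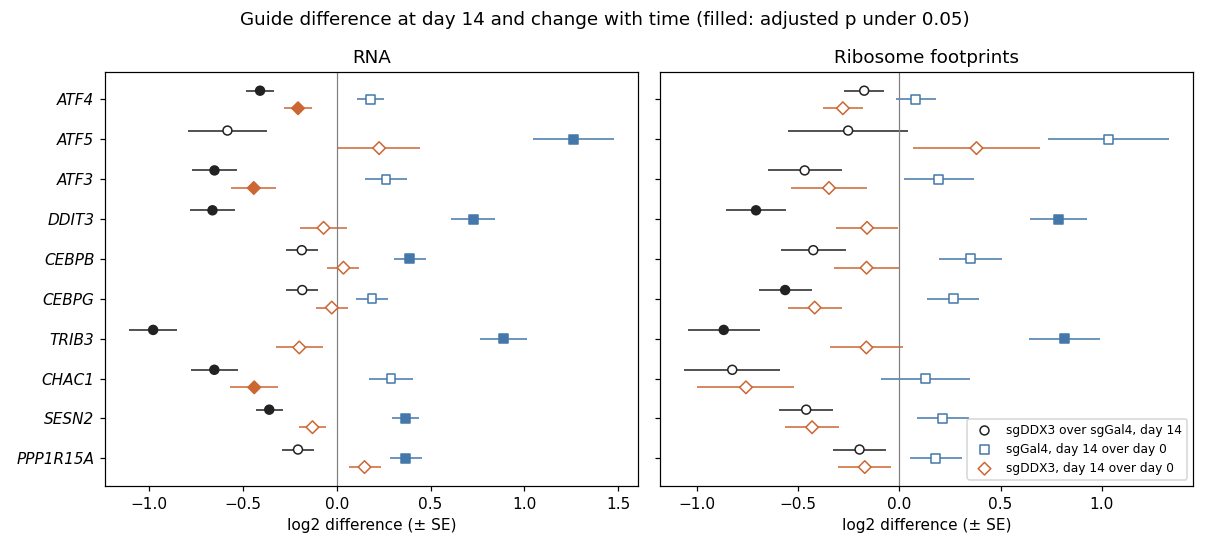
Log2 difference with its SE (horizontal axis) for the guide difference at day 14 (circles) and the change from day 0 to day 14 in sgGal4 (squares) and in sgDDX3 (diamonds), in RNA and in footprints. In RNA all 10 circles lie left of 0 and all 10 squares right of it, with filled symbols marking an adjusted p under 0.05.

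The guide difference at day 14 and the rise in sgGal4 share the 2 sgGal4 libraries of day 14, so a high value there would move both. For TRIB3 the pair of values was -0.98 and 0.89, for DDIT3 -0.66 and 0.73, for SESN2 -0.36 and 0.37, and for ATF5 -0.58 and 1.26. It was -0.19 and 0.39 for CEBPB, -0.21 and 0.37 for PPP1R15A, and -0.18 and 0.19 for CEBPG, whose change in sgGal4 did not pass. In TRIB3, DDIT3, SESN2 and CEBPG the 2 sizes lay within an SE of each other, and in ATF5, CEBPB and PPP1R15A the rise was the larger. Without sgDDX3 replicate 1 of day 14 the guide difference of DDIT3 was -0.42, smaller than its rise. For ATF4 the pair was -0.41 and 0.18, for ATF3 -0.65 and 0.26, and for CHAC1 -0.65 and 0.29, so the guide difference was the larger in size, as it was without sgDDX3 replicate 1 (-0.28, -0.42 and -0.42). The direct test is whether the change from day 0 differed between the guides. From day 0 to day 14 it did in 6 of the 10, all lower in sgDDX3, against 1.8% of all genes. Those were TRIB3 (-1.09 ± 0.18, adjusted p = 0.000979, edgeR), DDIT3 (-0.80 ± 0.17), CHAC1 (-0.73 ± 0.17), ATF3 (-0.70 ± 0.16), SESN2 (-0.50 ± 0.10) and ATF4 (-0.38 ± 0.10). ATF5 had the second largest value, -1.04 ± 0.30, with adjusted p = 0.0566 (edgeR). Without sgDDX3 replicate 1 of day 14 the values of ATF4 (-0.26), ATF3 (-0.47) and CHAC1 (-0.49) did not pass. Those of ATF4 and ATF3 were also lost without either day 0 library of each guide or either sgGal4 library of day 14. The CHAC1 value was also lost without sgDDX3 day 0 replicate 1 (-0.69), either sgGal4 day 0 library (-0.69 and -0.75) or sgGal4 day 14 replicate 2 (-0.68). For DDIT3 it was lost without sgDDX3 day 0 replicate 1 (-0.71) or sgGal4 day 0 replicate 2 (-0.75). For SESN2 it was lost without day 0 replicate 1 of sgDDX3 (-0.42) or of sgGal4 (-0.47). With 1 library left out, between 1 and 8 of the 10 passed, TRIB3 in every case. From day 0 to day 3, TRIB3 (-0.73 ± 0.18) and DDIT3 (-0.63 ± 0.17) passed, against 1.32% of all genes called lower, and at most 1 of them with a library left out. Between day 3 and day 14 no gene of the 10 passed by edgeR or DESeq2, against 0.164% of all genes. Of the 10, 4 had an unadjusted p under 0.05, against 7.91% of all genes.

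Ribosome footprints of all 10 genes had a negative guide difference at day 14, as RNA did, with fewer calls. At day 3 the signs differed for CEBPG (0.10 in RNA and -0.30 in footprints) and ATF5 (-0.02 and 0.38), none of which passed. From day 0 to day 14 in sgDDX3, PPP1R15A had 0.15 in RNA and -0.17 in footprints, and neither passed. At day 14 footprints of 3 of the 10 were lower with sgDDX3 (TRIB3, DDIT3 and CEBPG), against 1.29% of all genes, and the median over the 10 was -0.46. Replicates varied more in footprints than in RNA, with a common biological coefficient of variation of 9.99% against 6.13%. Footprints on upstream reading frames of ATF4, ATF5, DDIT3 and PPP1R15A may be counted with those on the coding sequence, and reads of overlapping antisense transcripts cannot be told apart.

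**Figure D4:**
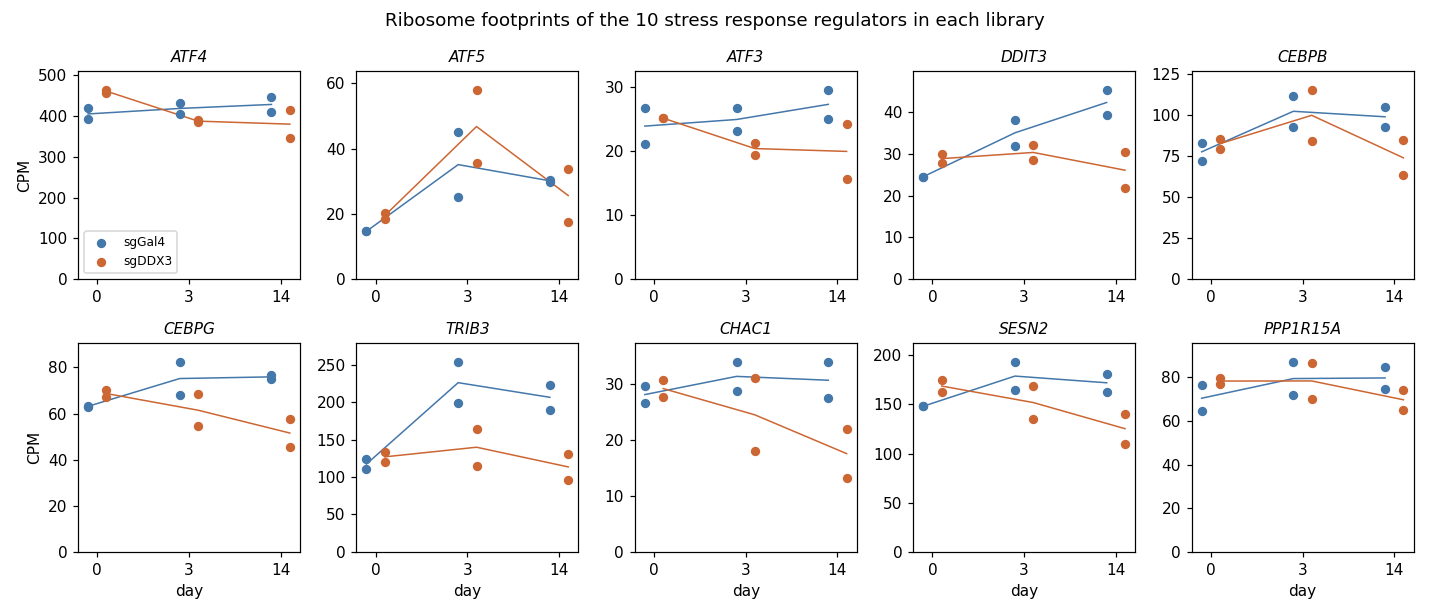
Footprint level in CPM (vertical axis, from 0, its own scale for each gene) of the 10 genes by day, 1 point per library, lines through the means of 2 libraries. At day 14 both sgDDX3 points lie under both sgGal4 points in 8 panels, all but ATF4 and ATF5.

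TRIB3 footprints were 123 and 111 CPM with sgGal4 at day 0, 253 and 199 at day 3, and 223 and 189.7 at day 14. With sgDDX3 they were 134 and 120.2, then 164 and 115, then 95.7 and 131 CPM. Both later sgDDX3 pairs lay under the control pairs, as in RNA. The difference was -0.70 ± 0.18 at day 3 (adjusted p = 0.0461, edgeR) and -0.87 ± 0.18 at day 14 (adjusted p = 0.0182). At day 3 it did not pass when sgDDX3 replicate 2 (-0.47), sgGal4 replicate 1 (-0.53) or sgGal4 replicate 2 (-0.88) was omitted, nor at day 14 when replicate 1 of sgDDX3 (-0.66) or of sgGal4 (-0.74) was.

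DDIT3 footprints were 24.5 CPM in both sgGal4 libraries at day 0, 38.1 and 31.8 at day 3, and 45.2 and 39.2 at day 14. With sgDDX3 they were 27.8 and 29.8, then 28.5 and 32.03, then 21.8 and 30.3 CPM. The pairs overlapped at day 3 and separated at day 14 (-0.71 ± 0.15, adjusted p = 0.0189, edgeR). Omitting replicate 1 of sgDDX3 (-0.49) or of sgGal4 (-0.59) ended the call.

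CEBPG footprints were 63.2 and 63.1 CPM with sgGal4 at day 0, 82.3 and 68.1 at day 3, and 75.03 and 76.8 at day 14. With sgDDX3 they were 70.1 and 67.3, then 68.3 and 54.6, then 45.3 and 57.8 CPM. The difference at day 14 was -0.56 ± 0.13 in footprints (adjusted p = 0.0331, edgeR) and -0.18 in RNA. Omitting sgDDX3 replicate 1 (-0.40), or either replicate of sgGal4 (-0.57 and -0.56), ended the footprint call.

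ATF4 footprints had a smaller guide difference at day 14 than its RNA, but footprints per unit of RNA did not pass between the guides. Footprints were 418 and 391 CPM with sgGal4 at day 0, 431 and 404 at day 3, and 445 and 410.2 at day 14. With sgDDX3 they were 463 and 456, 384 and 389, and 345 and 413 CPM. At day 0 both sgDDX3 libraries lay above both sgGal4 libraries. From day 0 to day 14 the sgDDX3 mean went from 460 to 379 CPM in footprints and from 661 to 572 in RNA. The sgGal4 mean went from 404 to 427 CPM in footprints and from 672 to 760 in RNA. At day 14 one sgDDX3 library lay between the 2 control libraries, and the difference of -0.17 ± 0.10 did not pass (adjusted p = 0.409, edgeR).

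CHAC1 (-0.82 ± 0.24, adjusted p = 0.077) and SESN2 (-0.46 ± 0.13, adjusted p = 0.0778) missed the threshold in edgeR at day 14 and passed in DESeq2. CHAC1 footprints were 13.2 and 21.9 CPM with sgDDX3 against 33.9 and 27.5, and those of SESN2 110.1 and 140.4 against 181 and 163. Neither pair overlapped. CEBPB (-0.42 ± 0.16), ATF3 (-0.47 ± 0.18), ATF5 (-0.25 ± 0.30) and PPP1R15A (-0.20 ± 0.13) did not pass. Of the 10 genes, 7 had an unadjusted p under 0.05 at day 14, against 17.3% of all genes. Without the filter on low counts 7 passed at the adjusted threshold, and without sgDDX3 replicate 1 of day 14 none did, with ATF5 then at 0.15.

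At day 3 footprints of 1 of the 10 (TRIB3) were lower, against 2.25% of all genes. Both sgDDX3 libraries lay under both sgGal4 libraries for 3 of 10 at day 3 (22.3% of all genes) and for 8 of 10 at day 14 (20.6%). At day 0 the footprint differences of all 10 were positive, from 0.06 to 0.40. None passed by edgeR or DESeq2, with 0.0101% of all genes called by edgeR. None had an unadjusted p under 0.05, against 4.85% of all genes. Over time in sgGal4, footprints of TRIB3 rose by day 3 (0.95 ± 0.18), against 0.703% of all genes. Those of TRIB3 (0.82 ± 0.18) and DDIT3 (0.79 ± 0.14) rose by day 14, against 1.54%. No rise of TRIB3 passed with any library of either day left out, and that of DDIT3 passed only when the omitted one was day 14 replicate 2. In sgDDX3, footprints of ATF5 rose by day 3 (1.25 ± 0.31), against 3.73% of all genes. ATF5 footprints went from 20.5 and 18.6 to 58.1 and 35.5 CPM in those cells. That rise was 0.87 and did not pass without day 3 replicate 1, and it was also lost without either day 0 library (1.31 and 1.18). By day 14 none of the 10 passed in sgDDX3 by edgeR, where 7.78% of all genes did. DESeq2 called 2 (CHAC1 and SESN2), for which the edgeR share is not the background. An unadjusted p under 0.05 was seen in 4 of the 10, against 23.0% of all genes. The change of the guide difference from day 0 to day 14 was negative for all 10 in footprints, from -0.98 to -0.35. None passed by edgeR (0.106% of all genes did). DESeq2 called 2 (DDIT3 and TRIB3), again not to be read against the edgeR share. An unadjusted p under 0.05 was reached by 7 of the 10, against 9.52% of all genes. From day 0 to day 3 none passed by edgeR or DESeq2, against 0.121% of all genes. Under an unadjusted p of 0.05 there were 3 of the 10, against 11.2% of all genes.

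Translational efficiency, meaning footprints per unit of RNA, did not pass for any of the 10 between the guides. At day 3 it was called for 5.14% of all genes and at day 14 for 1.75% by edgeR, and DESeq2 called none of the 10 at either day. At an unadjusted p under 0.05 there was 1 of the 10 at each day. Of all genes, 17.7% were so at day 3 and 12.1% at day 14. The gene was CEBPG (-0.41 ± 0.16 at day 3, adjusted p = 0.154, and -0.38 ± 0.16 at day 14, adjusted p = 0.301, edgeR). ATF4 had 0.13 ± 0.13 at day 3 and 0.24 ± 0.13 at day 14, the latter with an approximate 95% interval from -0.02 to 0.49. For ATF5 the interval at day 14 ran from -0.48 to 1.12, so the data left a wide range of differences of either sign. The medians over the 10 were 0.01 at day 3 and -0.02 at day 14. In sgGal4 from day 0 to day 14 none of the 10 passed by edgeR or DESeq2, against 0.121% of all genes. An unadjusted p under 0.05 was reached by 0 of the 10 and by 10.4% of all genes.

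**Figure D5:**
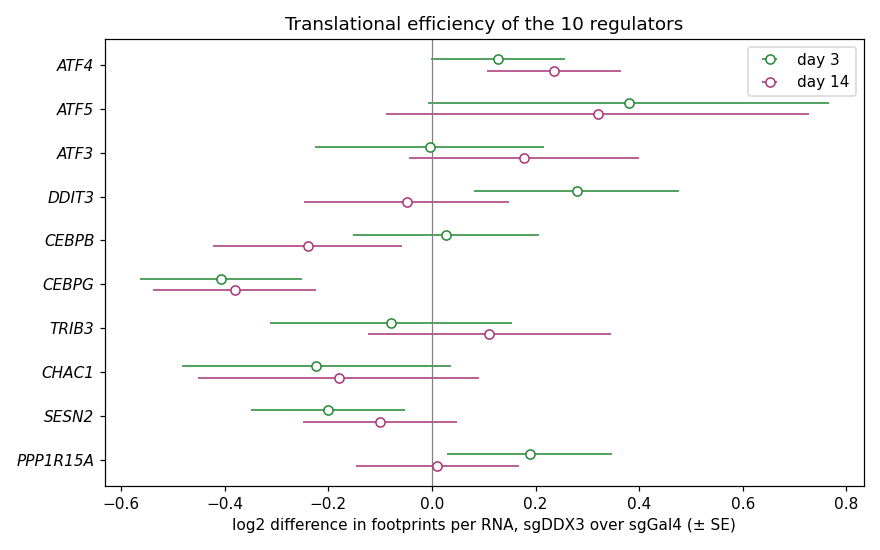
Log2 difference in translational efficiency between sgDDX3 and sgGal4 with its SE (horizontal axis) for the 10 genes at day 3 and day 14. None passed the test, and CEBPG is lowest at both days, at -0.41 and -0.38.

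The ratio of footprint CPM to RNA CPM at day 0 in sgGal4 placed the genes at different ranks of the 14853 genes with both measures, whose median was 0.81. ATF5 was lowest with 0.44, at percentile 19.01, then PPP1R15A with 0.54 and ATF4 with 0.60, at percentile 33.2. CEBPG (0.63) and TRIB3 (0.68) were under the median too. SESN2 (0.88), ATF3 (0.93), DDIT3 (1.07), CEBPB (1.09) and CHAC1 (1.24, percentile 72.2) were above it. Across the 6 groups the ratio of ATF4 ranged from 0.55 (sgGal4, day 3) to 0.70 (sgDDX3, day 0). These ratios are of means of 2 libraries and have no SD.

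Across the 12 RNA libraries the genes shared their pattern to unequal degrees. Of the 45 pairs, DDIT3 and TRIB3 had the highest Pearson r of log2 CPM (0.96), followed by ATF4 and CHAC1 (0.95), and CEBPG and PPP1R15A had the lowest (-0.11). PPP1R15A stood apart, with r of 0.25 to ATF4. In footprints the highest was SESN2 with CEBPG (0.97) and the lowest ATF4 with ATF5 (-0.02). The 12 points share the guide and day groups and the libraries' scaling, so these values are descriptions. Outside the 10, among 9808 genes with a mean of at least 10 CPM, the RNA pattern most like that of ATF4 was that of XBP1, a factor of the IRE1 arm (0.98). EIF1, CZIB, RNF41 and PRR11 followed, each with r of 0.96. The mean of the 10 standardized genes was most like UNC5B (0.98), then INHBE (0.97), the tRNA synthetase WARS1 (0.97), the transporter SLC1A4 (0.97) and PCK2 (0.97). In footprints the nearest to ATF4 were PTP4A2 (0.89), POTEI (0.88), BBC3 (0.87), CREB3L4 (0.87) and MXD3 (0.84). The nearest to the mean of the 10 were XBP1 (0.97), GPT2 (0.97), STC2 (0.95), EIF4EBP1 (0.94) and AKNA (0.93). POTEI belongs to a family of near-identical copies, so its value is uncertain.

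Genes further along the same pathway were lower with sgDDX3 too. Of 43 ATF4 target genes 42 were tested in RNA, and at day 14, 30 were lower and 0 higher (median -0.45), against 6.18% and 8.44% of all genes. At day 3, 15 were lower and 1 (SQSTM1) higher, against 6.39% and 7.68%. PCK2, a mitochondrial enzyme of gluconeogenesis (-0.75 ± 0.09), the cytokine GDF15 (-0.75 ± 0.09) and EIF4EBP1, which restrains eIF4E (-0.69 ± 0.08), were among the lower genes at day 14. So were SHMT2, a serine hydroxymethyltransferase (-0.67 ± 0.08), and the methionyl-tRNA synthetase MARS1 (-0.63 ± 0.06). In sgGal4 28 of the 42 rose and 2 fell from day 0 to day 14, against 7.7% and 8.55% of all genes. In sgDDX3 3 rose and 15 fell, against 13.4% and 12.8%. The change from day 0 to day 14 was lower in sgDDX3 for 24 of 42 and higher for 0, against 1.8% of all genes lower. Without sgDDX3 replicate 1 of day 14 the median was -0.32, fewer genes were called lower and not every call was lower. Without sgDDX3 replicate 2 the median was -0.62. Fewer genes were also called lower without sgGal4 replicate 2. Calls over all genes moved with a library left out too, so the shares above do not serve as the background of these settings. In footprints 13 of 42 were lower at day 14 (median -0.38), against 1.29% of all genes, and 0 without sgDDX3 replicate 1 (median -0.23). In translational efficiency the median was 0.08 and none of the 42 passed by edgeR or DESeq2.

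Upstream of ATF4 the RNA calls at day 14 went both ways. Of 8 genes for eIF2 kinases and their activators, 2 were higher at day 14, where 8.44% of all genes were. They were EIF2AK4, which encodes GCN2, the kinase that senses uncharged tRNA (0.55 ± 0.08, adjusted p = 7.37e-05, edgeR), and EIF2AK2, which encodes PKR (0.35 ± 0.09, adjusted p = 0.0137). OMA1, a mitochondrial protease that relays stress to the kinase HRI, had -0.39 ± 0.14 and did not pass. For EIF2AK4 translational efficiency was lower by edgeR at day 14 (-0.89 ± 0.14, adjusted p = 0.000559), and its footprints had -0.35 ± 0.13 (adjusted p = 0.184). EIF2AK1, which encodes HRI and is named after its values were seen, was the other of the 8 called lower in translational efficiency at day 14 (-0.48 ± 0.11, adjusted p = 0.0167, edgeR), where 1.37% of all genes were. It alone of the 8 was lower in footprints then (-0.37 ± 0.09, adjusted p = 0.0322), and its RNA had 0.11 ± 0.07 and did not pass. Of 10 genes for eIF2, its exchange factor eIF2B and the standing phosphatase, 2 were lower in RNA at day 14, against 6.18% of all genes. They were EIF2S2, the beta subunit of eIF2 (-0.38 ± 0.07), and the phosphatase PPP1CA (-0.33 ± 0.07).

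Neighbouring gene groups differed in their calls, to be read against 8.44% of all genes higher and 6.18% lower in RNA at day 14. Of 6 other mRNAs of the response with upstream reading frames, IFRD1 (-0.54 ± 0.10) and EPRS1 (-0.25 ± 0.08) were lower in RNA at day 14. Of 23 other bZIP factors, CEBPD (0.69 ± 0.16) and NFIL3 (0.37 ± 0.12) were higher and 0 lower, a share near that of all genes. Of 17 genes of the IRE1 and ATF6 arms, the other branches of the unfolded protein response, 6 were higher and 2 lower. The chaperones HYOU1 (0.40 ± 0.08) and CALR (0.36 ± 0.08) were higher, and XBP1 was lower (-0.62 ± 0.08). Among K562 and erythroid markers, 3 of 11 were lower at day 14 and 1 higher, with ALAS2, the first enzyme of heme synthesis, at -0.63 ± 0.07. None of 3 lymphoid markers that passed the filter on low counts was called by edgeR.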

How the data were processed

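For each assay the authors deposited 1 table of raw counts, whole numbers of reads for each gene. The submitters' processing notes name STAR 2.7.5a, Bowtie2 2.4.1, cutadapt 3.4, DESeq2 and the build GRCh38, without roles. How reads were counted, on which annotation and with which strand setting is not given in the sources used. Of 58037 genes per table, 45 copies of pseudoautosomal genes listed on the Y chromosome were left out. A symbol was found for 98.2% of the other 57992.

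Counts were scaled by TMM within each assay. Genes were kept by filterByExpr with a minimum count of 10 (18287 in RNA, 19780 in footprints, 14853 in both). The quasi-likelihood F-test of edgeR 4.0.16 (R 4.3.3, limma 3.58.1) was fitted over the 12 libraries of an assay, and for translational efficiency over all 24 as an interaction with assay. Benjamini-Hochberg adjustment ran over all genes. The scripts were tested on simulated data. Median depth was 1.45e+07 counts in RNA and 9.48e+06 in footprints. Alternatives were DESeq2 1.42.0, its size factors in edgeR, no filter on low counts, the newer edgeR fit, a replicate block and leaving out each library.

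Named were all 10 regulators, DDX3X, up to 3 genes (5 for ATF4 targets) of each other list with the smallest p for the RNA guide difference at day 14, and the 5 genes most correlated with ATF4 and with the mean of the 10. The regulators, lists and rules were chosen with earlier results of these data known. DDIT3 and TRIB3 are also named where they alone passed. Tables and figures were made with matplotlib 3.10.9, pandas 2.3.3 and Python 3.11.15.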

Additional observations from a re-analysis of the deposited data

Results flagged for a closer look

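The following 8 results are given again because the change from day 0 differed between the guides by the edgeR test of that difference. In RNA from day 0 to day 3, the change in sgDDX3 minus that in sgGal4 was -0.73 for TRIB3 and -0.63 for DDIT3 on the log2 scale. From day 0 to day 14 it was -1.09 for TRIB3, -0.80 for DDIT3, -0.73 for CHAC1, -0.70 for ATF3, -0.50 for SESN2 and -0.38 for ATF4. Without sgDDX3 replicate 1 of day 14 it was -0.26 for ATF4, -0.47 for ATF3 and -0.49 for CHAC1, and none of these passed. The TRIB3 value from day 0 to day 14 passed with each library left out. Those of DDIT3 and SESN2 were lost without sgDDX3 day 0 replicate 1 (-0.71 and -0.42), among others. From day 0 to day 3, the DDIT3 value was lost with any 1 library left out (-0.70 to -0.52). That of TRIB3 was lost by DESeq2 (adjusted p = 0.105) and without either day 0 library of each guide. It was also lost without sgDDX3 day 3 replicate 2 (-0.57) or sgGal4 day 3 replicate 1 (-0.60). Groups of 2 libraries were not tested for a sample far from the others.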

How the results depend on the processing

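No called value of the 10 genes reversed under any alternative that was run. The call counts per comparison changed as follows, each out of 10 genes. With 1 library left out in RNA, the count was 1 to 3 for the guide difference at day 3 (3 with all libraries), 6 to 9 at day 14 (6), 1 to 4 for sgGal4 at day 3 (5), 4 to 6 for sgGal4 at day 14 (6), 0 to 3 for sgDDX3 at day 3 (2) and 1 to 7 for sgDDX3 at day 14 (3). For the change of the RNA guide difference it was 0 to 1 from day 0 to day 3 (2), 1 to 8 from day 0 to day 14 (6) and 0 to 6 from day 3 to day 14 (0). In footprints it was 0 to 1 for the guide difference at day 3 (1), 0 to 6 at day 14 (3), 0 for sgGal4 at day 3 (1), 0 to 1 for sgGal4 at day 14 (2), 0 to 1 for sgDDX3 at day 3 (1), 0 to 3 for sgDDX3 at day 14 (0) and 0 to 1 for the change from day 0 to day 14 (0). In translational efficiency it was 0 to 1 for the guide difference and for sgDDX3, both at day 3 (0). A group with 1 library left is assumed to vary like the others.

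Without the filter on low counts 1 gene (ATF5) passed in RNA at day 0 and 1 in the RNA change from day 3 to day 14. In footprints 7 then passed for the guide difference at day 14, 4 for sgGal4 at day 3, 3 for sgGal4 at day 14, 3 for sgDDX3 at day 14, 1 for the change from day 0 to day 3 and 5 from day 0 to day 14, and in translational efficiency 1 for sgDDX3 at day 3. DESeq2 called 1 for sgDDX3 RNA at day 3, 1 for the RNA change from day 0 to day 3, 5 for the footprint guide difference at day 14, 2 for sgDDX3 footprints at day 14 and 2 for the footprint change from day 0 to day 14. The edgeR shares of all genes do not serve as the background of these DESeq2 counts. The cause of these changes was not tested, and the test has few libraries per group at the depth given.

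Replicate numbers were checked for pairing by the correlation across genes of the replicate differences of both guides at the same day. It was -0.16, 0.19 and 0.36 in RNA and 0.15, 0.13 and -0.09 in footprints at days 0, 3 and 14, so the numbers were not taken to pair libraries. With the replicate block 1 gene in place of 2 passed in the RNA change from day 0 to day 3, DDIT3 being lost (-0.63, adjusted p = 0.0571).

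Counts over all genes, and so the background shares, also moved by over 1.5 times. With 1 library left out the RNA guide difference had 1342 to 1962 genes at day 3 (2574 with all) and 1076 to 3201 at day 14 (2674). RNA over time had 101 to 672 in sgGal4 at day 3 (1039), 983 to 1340 at day 14 (2971), 2057 to 2960 in sgDDX3 at day 3 (3748) and 2849 to 5089 at day 14 (4790). The RNA change had 257 to 612 to day 3 (676) and 342 to 1582 to day 14 (816). The footprint guide difference had 121 to 713 at day 3 (753) and 143 to 497 at day 14 (672). Footprints over time had 12 to 91 in sgGal4 at day 3 (250), 43 to 335 at day 14 (488), 344 to 1342 in sgDDX3 at day 3 (1493) and 248 to 741 at day 14 (1539). Translational efficiency between the guides had 455 to 965 at day 3 (764) and 109 to 314 at day 14 (260). Without the filter there were 1594 and 1221 genes in the footprint guide difference at days 3 and 14, 963 in place of 250 for sgGal4 footprints at day 3, 1249 in place of 488 at day 14, and 384 in place of 21 (80 by DESeq2) for the footprint change to day 14. The same setting gave 33 in place of 1 for RNA and 282 in place of 2 (16 by DESeq2) for footprints between the guides at day 0, 119 in place of 30 for the RNA change from day 3 to day 14, 643 in place of 24 (98 by DESeq2) for the footprint change to day 3, and 76 in place of 18 for sgGal4 translational efficiency at day 14.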
